A study of Mus musculus with 8 samples.

Results

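Chemokines are small secreted proteins that draw leukocytes along a concentration gradient, and they are sorted into CC, CXC, CX3C and XC classes by the spacing of their first cysteines. They act through G protein-coupled receptors on the moving cells, while the atypical receptors (Ackr genes) bind chemokines without signalling through G proteins and so clear or store them. In the pregnant uterus the family is known for bringing in macrophages, dendritic cells and natural killer (NK) cells, and in mice the stroma that decidualizes after implantation silences several of these genes, which keeps activated T cells out. The genes described here are those whose platform symbol follows the naming pattern of chemokines and their receptors. They comprise 55 genes with 60 probe sets, of 19938 genes with 21789 probe sets that carry a single symbol on the array.

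Gene expression arrays compared uterine tissue of the inbred mouse strain C57BL/6 at day 3, 22 h (day 0 is the night of mating), shortly before embryos attach. The pregnant group (4 arrays) came from females mated with fertile stud males, and only uteri with no blue dye band and with healthy blastocysts in the flushing were taken. The pseudopregnant group (4 arrays) came from females mated with vasectomised males, so that the hormonal state of early pregnancy arose with no embryo. No age beyond young virgin females is given, and the samples were chosen for RNA quality. An effect of the type of male and one of the embryos cannot be told apart in this design.

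Values are log2 of the linear probe set intensities deposited by the authors after RMA, a method that corrects background and makes the arrays' distributions alike. Each gene was read from its brightest probe set over the 8 arrays. For each array the 40th percentile of its values, 5.23 to 5.32, served as a lower line, and the 17491 probe sets that exceeded it on 4 or more of the 8 arrays were tested. A gene is said to have risen or fallen where limma gave an adjusted p under 0.05 over all of these, by the Benjamini-Hochberg method. All 6 uterine markers examined, among them the progesterone and estrogen receptors Pgr and Esr1, passed this intensity filter. Pregnant replicate 2 and pseudopregnant replicate 1 stood farthest from the rest on the first principal component, at -26.7 and 20.3, against -6.63 to -4.90 for the other pregnant arrays and 6.76 to 9.32 for the other pseudopregnant arrays. The calls among the chemokine genes are also given without single arrays.

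**Figure D1:**
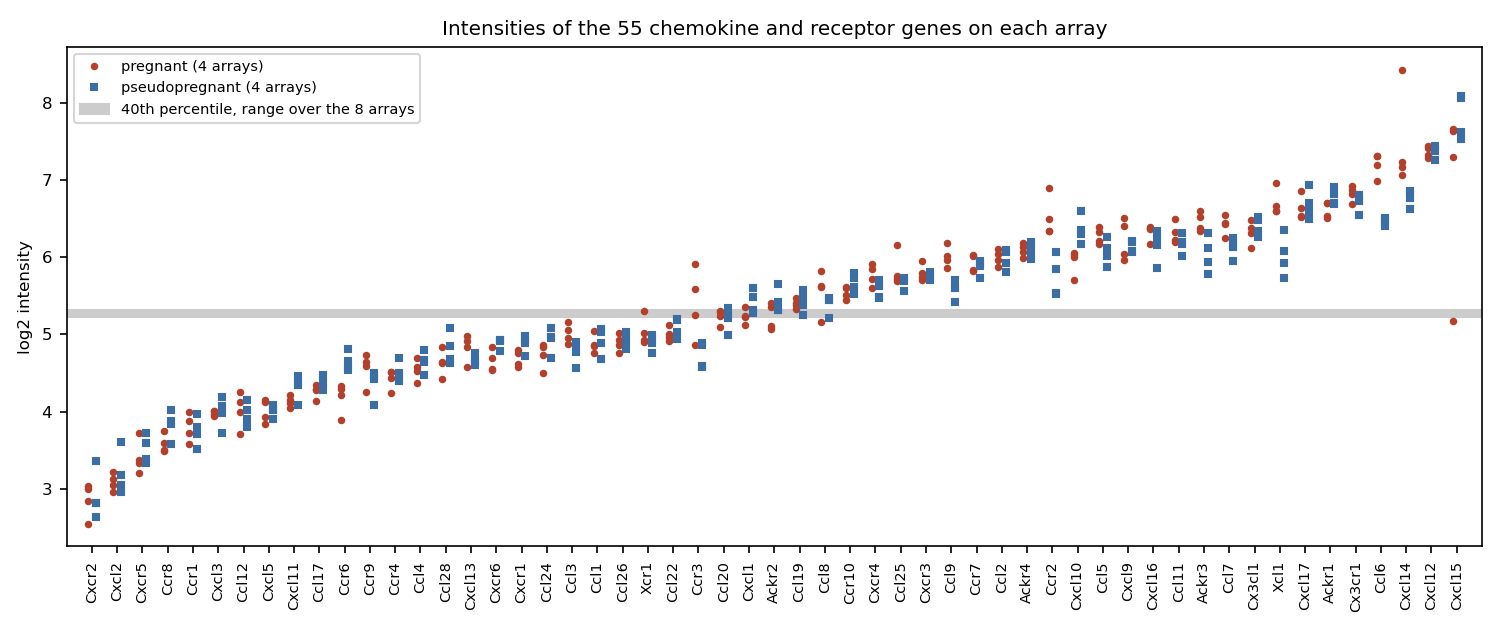
Log2 intensity of each of the 55 genes (horizontal axis, ordered by mean) on the 4 pregnant (circles) and 4 pseudopregnant (squares) arrays, with the range of the 40th percentile of the arrays in grey. Of the 55 genes, 29 passed the intensity filter and 26 did not, among them Cxcr2 at the low end, and Cxcl15 and Cxcl14 each have 1 pregnant array far from the other 3.

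Of the 55 genes, 29 passed the intensity filter, 25 of them above the line on all 8 arrays, and each of the 29 was above it on at least 1 array of each group. In pregnant uterus 4 of the 29 rose, namely the CC ligands Ccl6 and Ccl9, the XC ligand Xcl1 and the receptor Ccr2, and 0 fell (limma; 3 were lower at an unadjusted p under 0.05). They rose 1.67-fold (Ccl6), 1.34-fold (Ccl9), 1.60-fold (Xcl1) and 1.71-fold (Ccr2). The 4 are 13.8% of the genes tested, beside 1.41% of all tested probe sets that rose and 0.412% that fell. Without single arrays the count was 1, that of Ccl6, for any array but pseudopregnant replicate 4, whose removal left 3. Differences were above 0 for 19 of the 29 genes and below 0 for 10, with a median of 0.09 against 0.0019 over all tested probe sets. The sign of that median turned with the filter: it was -0.0015 over all 55 genes without one and -0.0058 over the 9 genes left by a stricter one. The groups did not overlap for 6 genes with pregnant uterus higher (Ccl6, Ccl9, Xcl1, Ccr2, Ackr3 and Cxcl14), or 20.7%, where 9.23% of all tested probe sets had such a gap. They did not overlap for 1 gene with pregnant uterus lower (Cxcl10), or 3.45%, beside 5.39% of all. At an unadjusted p under 0.05, 9 genes (31.0%) were higher and 3 (10.3%) lower, against 14.3% and 9.43% of all tested probe sets.

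**Figure D2:**
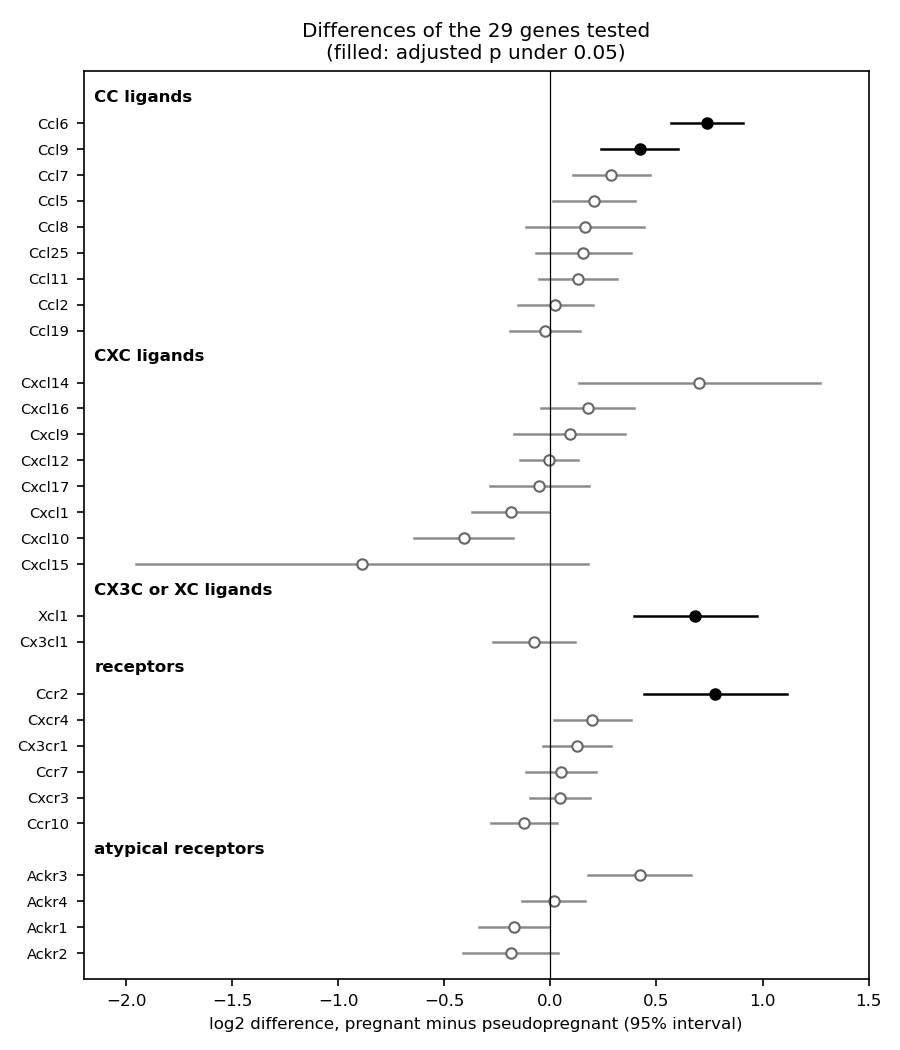
Log2 difference of each of the 29 genes tested, pregnant minus pseudopregnant (horizontal axis), with its 95% interval from limma, sorted by class (4 arrays per group). Filled points mark the 4 genes that passed, Ccl6, Ccl9, Xcl1 and Ccr2, all to the right of 0, and the interval of Cxcl15 is the widest, from -1.95 to 0.18.

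The 4 genes that rose and Cxcl10, the gene tested with the smallest p among those lower in pregnant uterus, are shown by the 250 bases before their start in RefSeq (GRCm38.p6), read on the gene's own strand. Capitals mark matches, on either strand, to the TATA box TATAAA, the STAT motif TTCNNNGAA, the interferon motif (GAAA, any 2 bases and GAAA again), the AP-1 motif TGANTCA, the PU.1 motif GAGGAAGT and the NF-kB motif. Overlapping matches run together, as a pair of TATA matches does in Ccl9 and a pair of NF-kB matches in Cxcl10.
Ccl6, chr11:83593088-83593337, minus strand: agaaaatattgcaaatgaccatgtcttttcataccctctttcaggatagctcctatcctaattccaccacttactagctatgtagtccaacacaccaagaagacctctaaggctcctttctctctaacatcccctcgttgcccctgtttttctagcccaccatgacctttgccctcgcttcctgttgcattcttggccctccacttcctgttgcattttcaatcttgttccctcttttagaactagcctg
Ccl9, chr11:83578637-83578886, minus strand: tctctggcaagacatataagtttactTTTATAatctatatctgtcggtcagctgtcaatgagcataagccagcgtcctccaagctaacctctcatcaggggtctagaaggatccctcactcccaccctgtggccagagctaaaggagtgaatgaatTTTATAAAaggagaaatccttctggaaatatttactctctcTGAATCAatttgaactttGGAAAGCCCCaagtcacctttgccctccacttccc
Xcl1, chr1:164935523-164935772, minus strand: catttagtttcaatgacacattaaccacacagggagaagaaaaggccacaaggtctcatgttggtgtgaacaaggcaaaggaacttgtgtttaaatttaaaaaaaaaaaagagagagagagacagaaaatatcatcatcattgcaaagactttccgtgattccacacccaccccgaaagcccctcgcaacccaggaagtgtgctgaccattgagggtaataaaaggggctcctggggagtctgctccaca
Ccr2, chr9:124101933-124102182, plus strand: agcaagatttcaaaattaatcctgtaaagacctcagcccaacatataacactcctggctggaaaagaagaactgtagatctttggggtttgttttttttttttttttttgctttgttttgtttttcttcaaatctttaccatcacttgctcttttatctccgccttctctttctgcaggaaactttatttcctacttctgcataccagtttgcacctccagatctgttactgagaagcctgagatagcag
Cxcl10, chr5:92348890-92349139, minus strand: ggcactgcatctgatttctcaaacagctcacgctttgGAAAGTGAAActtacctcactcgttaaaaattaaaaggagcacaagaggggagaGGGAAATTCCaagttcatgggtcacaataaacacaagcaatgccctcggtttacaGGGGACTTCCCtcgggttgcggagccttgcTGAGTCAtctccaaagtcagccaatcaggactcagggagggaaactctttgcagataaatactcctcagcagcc
The Cxcl10 window held the interferon motif 213 bases before the start, NF-kB matches at 159, 104 and 103, and the AP-1 motif at 74. In Ccl9 the NF-kB match began 35 bases before the start, the AP-1 match 53 bases before it, and TATA matches at 94, 92 and 224. None of the 6 motifs was found in the windows of Ccl6, Xcl1 and Ccr2. Over the 32851 RefSeq windows of this length, 12.4% held the TATA box, 7.02% the STAT motif, 2.98% the interferon motif, 6.75% the AP-1 motif, 2.44% the PU.1 motif and 7.25% the NF-kB motif. Windows were at hand for 41 of the 55 genes, of which 11 (26.8%) held the NF-kB motif, 13 (31.7%) the TATA box, 4 (9.76%) the AP-1 motif, 3 (7.32%) the interferon motif, 3 (7.32%) the STAT motif and 1 (2.44%) the PU.1 motif. A gene was counted where any of its windows matched, while the shares over RefSeq are of single windows. Such a match describes the letters in the window and says nothing of binding.

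Ccl6, a CC chemokine of rodents that macrophages make and that acts on Ccr1, had log2 intensities of 6.99, 7.31, 7.31 and 7.20 in pregnant uteri, against 6.40, 6.51, 6.50 and 6.45 in pseudopregnant uteri. All 4 pregnant arrays lay above all 4 pseudopregnant arrays, with a gap wider than the range of either group. The means were 7.20 ± 0.15 and 6.47 ± 0.049 (SD, n = 4 each), a difference of 0.74 ± 0.076 (SE) with an adjusted p of 0.0094, which placed it at rank 4 by p among the 17491 probe sets. Ccl6 passed under 18 of 18 other settings, with adjusted p of 0.0047 to 0.040. In bulk tissue, a change in the number of cells that make a transcript and one in the RNA made per cell cannot be told apart.

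Ccl9, another rodent ligand of Ccr1 made by macrophages and other myeloid cells, had 5.96, 6.19, 6.01 and 5.86 in pregnant uteri, against 5.61, 5.43, 5.70 and 5.60 in pseudopregnant uteri. The groups did not overlap, and the values of both lay close above the 40th percentile, where RMA narrows differences. The difference was 0.42 ± 0.082 (SE) with an adjusted p of 0.038. With any 1 array removed it no longer passed, at adjusted p of 0.053 to 0.095 and differences of 0.36 to 0.47. The lowest of these p came without pregnant replicate 4 and the highest without pseudopregnant replicate 1, and the others were 0.068, 0.062 and 0.070 without pregnant replicates 1, 2 and 3 and 0.070, 0.066 and 0.064 without pseudopregnant replicates 2, 3 and 4. Ccr1, their receptor, did not pass the filter and had 3.58, 3.72, 4.00 and 3.87 in pregnant uteri against 3.51, 3.79, 3.96 and 3.71 in pseudopregnant uteri.

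In the RefSeq gene order of chromosome 11, the protein-coding genes Ccl5, Ccl9, Ccl6, Ccl3 and Ccl4 follow one another. Their differences in that order were 0.21, 0.42, 0.74, 0.25 and -0.10, of which the 2 called are those of the neighbours Ccl9 and Ccl6. Ccl3 and Ccl4, ligands of T cell, NK cell and macrophage origin, were below the line on all arrays, at 4.87 to 5.16 and 4.37 to 4.70 in pregnant uteri against 4.56 to 4.91 and 4.47 to 4.80 in pseudopregnant uteri. Ccl5, which draws T cells and NK cells, had 6.17, 6.40, 6.33 and 6.21 in pregnant uteri and 6.12, 6.02, 5.88 and 6.27 in pseudopregnant uteri. Its groups overlapped, and it did not pass (0.21 ± 0.087, adjusted p = 0.19).

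Xcl1, also called lymphotactin, is made by NK cells and activated CD8 T cells and acts on Xcr1, the receptor of cross-presenting dendritic cells. It had 6.60, 6.97, 6.60 and 6.66 in pregnant uteri, against 6.08, 5.93, 5.73 and 6.36 in pseudopregnant uteri. No pregnant array was as low as the highest pseudopregnant one, replicate 4, and pregnant replicate 2 was the highest of all. The difference was 0.68 ± 0.13 (SE) with an adjusted p of 0.037. Xcl1 passed without pseudopregnant replicate 4 (0.79, adjusted p = 0.023) and did not without pregnant replicates 1 (0.062), 2 (0.062), 3 (0.053) and 4 (0.073) or pseudopregnant replicates 1 (0.094), 2 (0.074) and 3 (0.078). Its difference stayed between 0.58 and 0.79 in these fits. Xcr1 did not pass the filter, with 4.90, 5.30, 4.92 and 5.02 in pregnant uteri against 4.99, 4.89, 4.76 and 4.95 in pseudopregnant uteri.

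Markers of NK cells were higher in pregnant uteri, as Xcl1 was. Of 8 tested NK cell markers 5 rose, beside 1.41% of all tested probe sets. Among the 5, the granzyme Gzmb rose by 1.51 and the receptor Ncr1 by 0.99. Over all 10 on the array, tested or not, every difference was above 0, with a median of 0.81. Klrb1c and Klrk1 were below the line on all arrays. Eomes and Klrd1 were above it on the pregnant arrays alone, so they entered the test only through the group where they were high. The summed intensity of the 8, Eomes and Klrd1 included, lay between 591 and 1063 in pregnant uteri and between 326 and 467 in pseudopregnant uteri. Both of these genes entered through the pregnant group, which widens this gap. Pregnant replicate 2 was the highest array and pseudopregnant replicate 4 the highest of its group, as for Xcl1. The other arrays did not follow the same order. By the mean of the list, pseudopregnant replicate 3 came next in its group (5.44), while it was the lowest for Xcl1 (5.73). Pregnant replicate 3 also came next in its group by that mean (6.30), while for Xcl1 it stood with replicate 1 at the low end (6.60). Without pregnant replicates 1 to 4 the count of risen NK cell markers was 2, 3, 2 and 0, and without pseudopregnant replicates 1 to 4 it was 0, 0, 0 and 5. Of the T and B cell markers 3 of 10 on the array passed the filter and 0 changed (limma; 0 at an unadjusted p under 0.05), with a median difference of -0.095. The part of NK cells in the difference of Xcl1 was not tested.

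Ccr2, the receptor that brings monocytes out of the bone marrow and into tissues, had 6.34, 6.91, 6.34 and 6.50 in pregnant uteri, against 5.53, 5.52, 5.85 and 6.07 in pseudopregnant uteri. The groups did not overlap, with pseudopregnant replicate 4 the closest to the pregnant arrays. The difference was 0.78 ± 0.15 (SE) with an adjusted p of 0.038. It passed without pseudopregnant replicate 4 (0.89, adjusted p = 0.031) and not without pregnant replicates 1 (0.059), 2 (0.055), 3 (0.051) and 4 (0.078) or pseudopregnant replicates 1 (0.11), 2 (0.076) and 3 (0.078). Over these fits the difference lay between 0.65 and 0.89.

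Of the Ccr2 ligands, Ccl7 had 6.56, 6.25, 6.44 and 6.43 in pregnant uteri, against 6.26, 5.96, 6.17 and 6.14 in pseudopregnant uteri. Its groups overlapped by 1 array on either side, and it did not pass (0.29 ± 0.082, adjusted p = 0.083). Ccl2, the main monocyte attractant of the group, had 6.05, 5.96, 6.11 and 5.87 in pregnant uteri and 6.07, 5.80, 6.10 and 5.93 in pseudopregnant uteri, with a difference of 0.023 (95% interval -0.15 to 0.20). Its sign turned without pregnant replicate 3 (-0.014) and without pseudopregnant replicate 2 (-0.034). The rodent ligand Ccl12 was below the line on all arrays, at 3.71 to 4.26 in pregnant and 3.80 to 4.14 in pseudopregnant uteri.

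Ccr3, the eosinophil receptor, is the protein-coding gene before Ccr2 on chromosome 9. It had 4.86, 5.25, 5.92 and 5.60 in pregnant uteri, against 4.89, 4.58, 4.87 and 4.58 in pseudopregnant uteri. Its pregnant replicates 2, 3 and 4 were above the line and the 4 pseudopregnant arrays below it, so it missed the filter by 1 array. Tested without the filter it differed by 0.68 ± 0.19 (SE, adjusted p = 0.13), with pregnant replicate 1 among the pseudopregnant values. Of the eosinophil and mast cell markers 4 of 8 passed the filter and 0 changed (limma; 0 at an unadjusted p under 0.05), while the eosinophil granule genes Epx and Prg2 and the receptor Il5ra were below the line. Ccl11, the eotaxin that Ccr3 binds, had 6.20, 6.22, 6.50 and 6.32 in pregnant uteri and 6.20, 6.32, 6.02 and 6.18 in pseudopregnant uteri. Its groups overlapped (0.13 ± 0.083, adjusted p = 0.36). The difference of Ccl11 was 0.068 without pregnant replicate 3. The other eotaxins, Ccl24 and Ccl26, did not pass the filter.

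Most tested markers of macrophages, monocytes and dendritic cells were higher in pregnant uteri, as Ccl6, Ccl9 and Ccr2 were. Of 13 tested macrophage and monocyte markers 6 rose, beside 1.41% of all tested probe sets. Of the 13, 12 had differences above 0, and the median was 0.35. Cd163 was below the line. Adgre1, the F4/80 antigen, rose by 0.62, the complement gene C1qb by 0.56 and Cd68 by 0.48, while the endotoxin receptor Cd14 differed by -0.27 (adjusted p = 0.24; -0.16 without pregnant replicate 2 and -0.18 without pseudopregnant replicate 1). Summed intensities of the 13 were 2115 to 2615 in pregnant uteri against 1733 to 1888 in pseudopregnant uteri. Of 10 dendritic cell markers 5 rose, namely Itgax, Clec9a, H2-Ab1, H2-Aa and Cd74, while Flt3, Zbtb46, Cd209a, Batf3 and Irf8 did not. Differences were above 0 for 8 of the 10, with a median of 0.33. Their sums were 2169 to 2523 in pregnant against 1607 to 1942 in pseudopregnant uteri. Among the 5 that rose were the lectin Clec9a of cross-presenting dendritic cells (0.81, adjusted p = 0.026) and the class II gene H2-Ab1 (0.58, adjusted p = 0.038). Batf3, a factor those dendritic cells need, differed by -0.17 (adjusted p = 0.099). Whether these markers tell dendritic cells from macrophages in this tissue was not tested. Clec9a was above the line on the 4 pregnant arrays (5.47 to 5.75) and on 0 pseudopregnant arrays (4.42 to 5.09). So it was tested only through the pregnant group, and the size of its difference is not exact. It is among the 5 that rose and is part of the dendritic median and sums. Without pregnant replicates 1 to 4 the macrophage count was 3, 4, 4 and 2 and the dendritic count 1, 0, 1 and 0. Without pseudopregnant replicates 1 to 4 they were 1, 1, 1 and 3 and 0, 1, 0 and 3. The part of these cells in the differences of the chemokine genes was not tested. Of the markers of stromal fibroblasts, smooth muscle, platelets and red blood cells, and blastocysts, 0 changed (limma). By unadjusted p, 1 smooth muscle gene was lower and 1 gene of the blastocyst list higher. The medians of these lists were 0.073 over 8 genes, 0.10 over 6, -0.12 over 3 and 0.099 over 2. The embryonic factors Pou5f1, Nanog, Cdx2, Tfap2c and Elf5 were below the line. That left Krt7 and Hand1 in the blastocyst list, and whether they mark embryos in this tissue was not tested.

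**Figure D3:**
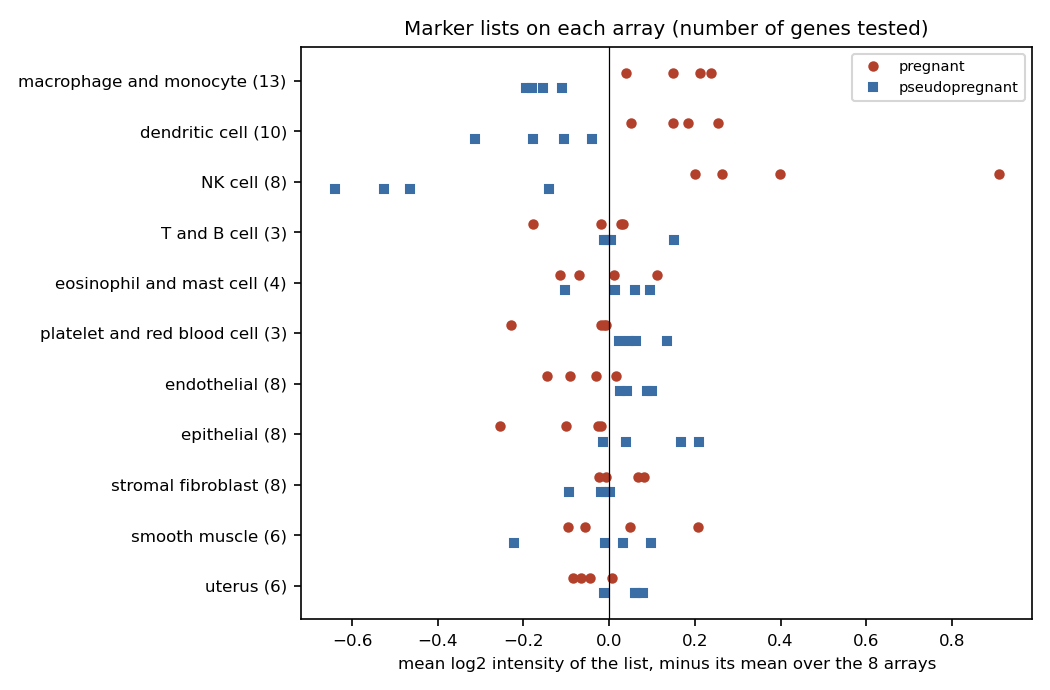
Mean log2 intensity of each marker list on each of the 8 arrays, minus the list's mean over all arrays (horizontal axis), for lists with at least 3 genes tested (number in parentheses). Pregnant (circles) and pseudopregnant (squares) arrays do not overlap for the macrophage, dendritic cell and NK cell lists. Pregnant replicate 2 is at the far right of the NK cell row. Epithelial, endothelial, platelet and red blood cell means are lower on the pregnant arrays. Eomes and Klrd1 in the NK cell list and Clec9a in the dendritic list were tested only through the pregnant group.

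Cxcl10, an interferon-induced ligand of Cxcr3 that draws in activated T cells and NK cells, was lower on every pregnant array than on any pseudopregnant one. It had 6.01, 6.06, 6.03 and 5.70 in pregnant uteri, against 6.18, 6.60, 6.30 and 6.36 in pseudopregnant uteri. Its difference of -0.41 ± 0.10 (SE, adjusted p = 0.066) did not pass, and adjusted p ran from 0.051 to 0.12 over 17 other settings. Cxcl9, a ligand of the same receptor, had 6.04, 6.51, 6.41 and 5.97 in pregnant uteri and 6.09, 6.21, 6.20 and 6.07 in pseudopregnant uteri, with wide overlap (0.090 ± 0.12, adjusted p = 0.66; -0.0029 without pregnant replicate 2). Cxcr3 itself differed by 0.045 (95% interval -0.10 to 0.19), with -0.0083 without pregnant replicate 3. Cxcl11, the other ligand, was below the line at 4.04 to 4.21 in pregnant and 4.08 to 4.46 in pseudopregnant uteri. Irf1, an interferon-regulated factor that acts on Cxcl10, was lower on every pregnant array and did not pass (-0.19, adjusted p = 0.13).

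Cxcl12 is the stromal ligand of Cxcr4, and Ackr3 is the atypical receptor that removes it. Cxcl12 had 7.29, 7.43, 7.33 and 7.44 in pregnant uteri and 7.27, 7.44, 7.42 and 7.38 in pseudopregnant uteri. The groups covered nearly the same range, and the difference was -0.0058 (95% interval -0.14 to 0.13), above 0 when pregnant replicate 1 (0.022) or 3 (0.0092), or pseudopregnant replicate 2 (0.017) or 3 (0.0084), was left out. Ackr3 had 6.38, 6.52, 6.60 and 6.35 in pregnant uteri, against 5.94, 6.12, 6.32 and 5.79 in pseudopregnant uteri. Its groups were parted by a narrow margin between pregnant replicate 4 and pseudopregnant replicate 3, and it did not pass (0.42 ± 0.11, adjusted p = 0.068). Cxcr4 differed by 0.20 ± 0.082 with overlap (adjusted p = 0.18).

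**Figure D4:**
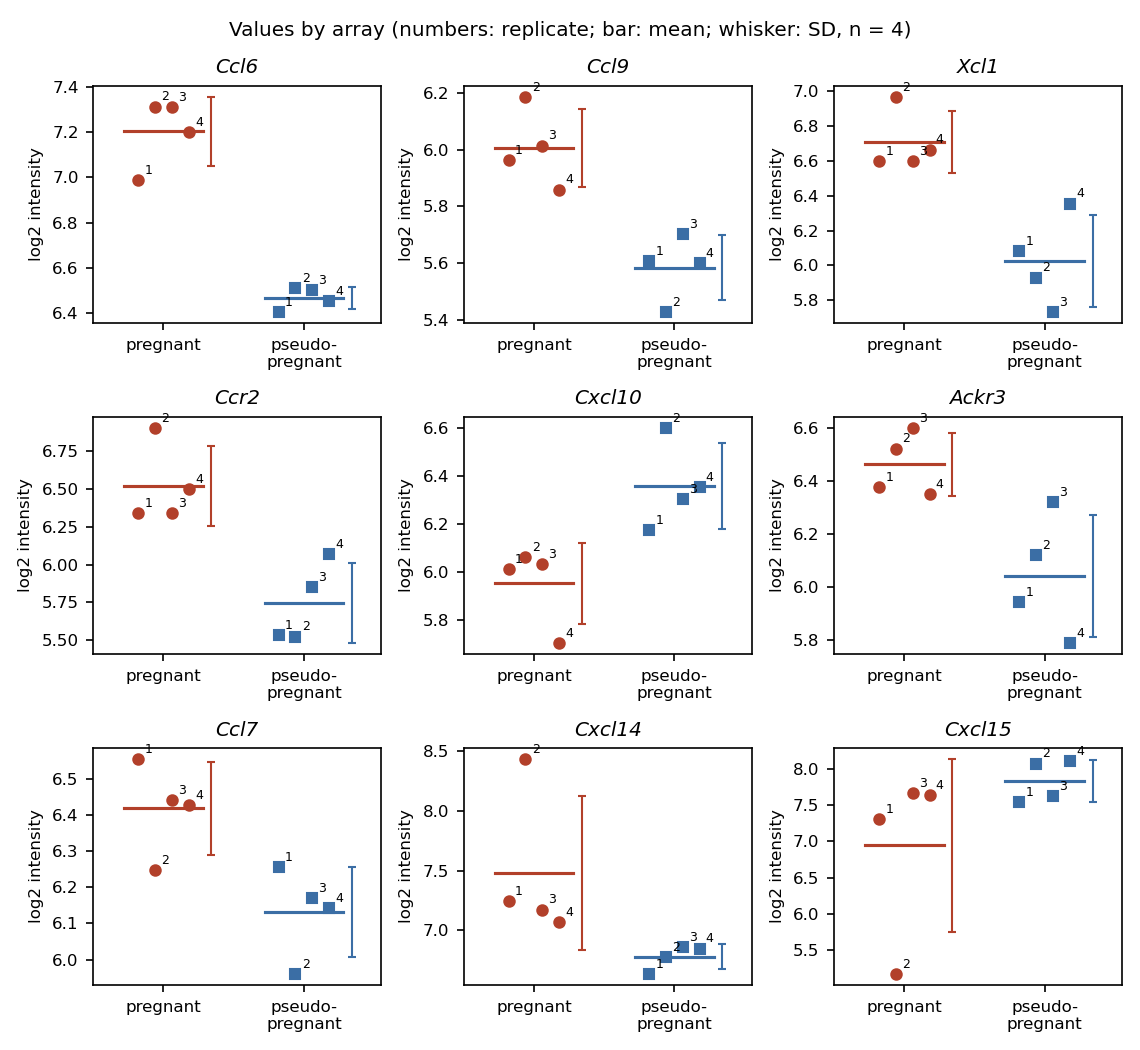
Log2 intensity of 9 genes on each array (numbers give the replicate), with the mean as a bar and the SD as a whisker (n = 4 per group). Ccl6, Ccl9, Xcl1, Ccr2, Ackr3 and Cxcl14 are higher on all pregnant arrays than on any pseudopregnant array, Cxcl10 is lower on all of them, and pregnant replicate 2 stands at 8.44 for Cxcl14 and 5.17 for Cxcl15.

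Among the chemokines of mucosal and glandular epithelium, pregnant replicate 2 stood apart for Cxcl14 and Cxcl15. Cxcl14, a constitutive CXC ligand of epithelia and stroma, had 7.24, 8.44, 7.17 and 7.07 in pregnant uteri, against 6.63, 6.78, 6.86 and 6.85 in pseudopregnant uteri. All pregnant arrays were the higher ones, with pregnant replicate 2 more than 1 log2 unit above the other 3, and the difference of 0.70 ± 0.26 (SE) did not pass (adjusted p = 0.14). Without that array it was 0.38 with an adjusted p of 0.052. Cxcl15, a CXC ligand of mice made by airway epithelium and uterine glands, had 7.30, 5.17, 7.66 and 7.64 in pregnant uteri, against 7.54, 8.07, 7.62 and 8.10 in pseudopregnant uteri. Pregnant replicate 2 was its lowest array by more than 2 log2 units and the only one below the line. The difference was -0.89 ± 0.48 (SE, adjusted p = 0.29), and without that array it was -0.30 (adjusted p = 0.31).

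Cxcl17, a mucosal ligand, differed by -0.052 (95% interval -0.29 to 0.18) and by 0.034 without pseudopregnant replicate 1. Cxcl16, which exists as a membrane-bound and a soluble ligand of Cxcr6, differed by 0.18 ± 0.098 (adjusted p = 0.30) and by 0.080 without pseudopregnant replicate 1, with values of 6.18 to 6.39 in pregnant uteri against 5.87 to 6.34 in pseudopregnant uteri. Of the 8 epithelial markers 0 changed (limma), and 1 of the 8 differences was above 0. At an unadjusted p under 0.05, 2 were lower, where 9.43% of all tested probe sets were. The mean of the 8 was 7.26 to 7.49 in pregnant uteri, lowest on pregnant replicate 2, against 7.50 to 7.72 in pseudopregnant uteri. Whether the epithelial share of the tissue bears on Cxcl14 and Cxcl15 was not tested.

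Of the other genes of the neutrophil axis, to which Cxcl15 also belongs, most were dim. The receptors Cxcr1 and Cxcr2 and the ligands Cxcl2, Cxcl3 and Cxcl5 were below the line on all 8 arrays, and 0 of the 9 neutrophil markers passed the filter. Cxcl1, another neutrophil attractant, had 5.36, 5.23, 5.12 and 5.24 in pregnant uteri and 5.60, 5.32, 5.29 and 5.49 in pseudopregnant uteri. Only 1 pregnant array lay above the line, so the size of its difference (-0.19 ± 0.081, adjusted p = 0.20) is not exact.

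Genes of lymphoid homing and of resident tissue leukocytes did not pass. Ccr7, which guides dendritic cells and T cells to lymph nodes, differed by 0.050 (95% interval -0.11 to 0.21), and by 0.0018 to 0.087 without single arrays. Its ligand Ccl19 differed by -0.026 (95% interval -0.19 to 0.14) and by 0.027 without pseudopregnant replicate 1, and it has 5 probe sets, of which 2 carry the same values on every array. Near copies of Ccl19 are known in mice, as Ccl6 and Ccl9 are close relatives, and sharing of probes between such genes was not tested. Cx3cr1, the fractalkine receptor of resident macrophages and monocytes, had 6.82, 6.88, 6.70 and 6.93 in pregnant uteri and 6.74, 6.55, 6.73 and 6.81 in pseudopregnant uteri. It differed by 0.13 ± 0.073 with overlap (adjusted p = 0.32). The difference of Cx3cr1 was 0.071 without pseudopregnant replicate 2. Its ligand Cx3cl1 differed by -0.078 (95% interval -0.27 to 0.12), by -0.0089 without pregnant replicate 1 and by -0.13 without pregnant replicate 2. Ccl25, the Ccr9 ligand of gut and thymus, differed by 0.16 ± 0.10 (adjusted p = 0.37) with its highest value, 6.16, on pregnant replicate 4, and by 0.046 without that array. Ccl8, a Ccr8 ligand in mice, differed by 0.16 ± 0.13 (adjusted p = 0.46), by 0.29 without pregnant replicate 1 and by 0.074 without pregnant replicate 4. Ccr10, the receptor of Ccl28, differed by -0.13 ± 0.070 (adjusted p = 0.30; -0.083 without pseudopregnant replicate 4).

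Of the atypical receptors other than Ackr3, Ackr1, which carries chemokines across the endothelium of small veins, had 6.71, 6.51, 6.70 and 6.53 in pregnant uteri and 6.69, 6.70, 6.83 and 6.92 in pseudopregnant uteri. Pregnant replicates 2 and 4 were below every pseudopregnant array, and the groups overlapped (-0.17 ± 0.074, adjusted p = 0.19). Of 8 endothelial markers 0 passed (limma), and 1 of the 8 differences was above 0, with a median of -0.12. By unadjusted p under 0.05, 2 were lower, where 9.43% of all tested probe sets were. Ackr2, a scavenger of inflammatory CC chemokines on lymphatic vessels, differed by -0.19 ± 0.10 (adjusted p = 0.29; -0.11 without pseudopregnant replicate 1), with 2 pregnant arrays below the line. Ackr4, which clears Ccl19 and Ccl25, differed by 0.015 (95% interval -0.13 to 0.16), with -0.016 without pregnant replicate 2, -0.0072 without pseudopregnant replicate 2 and -0.017 without pseudopregnant replicate 3.

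The 26 genes that did not pass the filter had values between 2.54 and 5.92, and 23 of them were below the line on all 8 arrays. They were the ligands Ccl1, Ccl3, Ccl4, Ccl12, Ccl17, Ccl20, Ccl22, Ccl24, Ccl26, Ccl28, Cxcl2, Cxcl3, Cxcl5, Cxcl11 and Cxcl13 and the receptors Ccr1, Ccr3, Ccr4, Ccr6, Ccr8, Ccr9, Cxcr1, Cxcr2, Cxcr5, Cxcr6 and Xcr1. Ligands passed the filter in 19 of 34 cases (55.9%), receptors with G protein signalling in 6 of 17 (35.3%) and atypical receptors in 4 of 4, beside 65.4% of the 19938 genes on the array, each by its brightest probe set. Tested without the filter, 0 of the 26 were called (limma), where 42 of all 28939 probe sets were called higher and 12 lower. By unadjusted p under 0.05 there were 2 higher and 5 lower among the 26. The share of all probe sets at that threshold was not computed for this fit, so whether these counts show a tendency cannot be said. The smallest adjusted p was that of Ccr6, the receptor of Ccl20, with 4.34, 4.21, 3.90 and 4.30 in pregnant uteri against 4.81, 4.54, 4.65 and 4.56 in pseudopregnant uteri. Every pregnant array was lower, by 0.46 ± 0.10 on average (adjusted p = 0.091), at levels where the array gives no exact size.

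Of 33 tested genes from a list of other chemokine pathway components, 3 rose and 0 fell (limma), with a median difference of 0.11. By unadjusted p under 0.05, 11 were higher and 2 lower. Of all tested probe sets, 1.41% rose and 0.412% fell, and 14.3% were higher and 9.43% lower by unadjusted p. The 3 that rose were Dock2 (0.49 ± 0.097, adjusted p = 0.040), the Rac activator of migrating leukocytes, the phospholipase Plcb2 (0.36 ± 0.067, 0.035) and Cd74 (0.35 ± 0.072, 0.044). Cd74 is a receptor for the cytokine Mif, is also the class II invariant chain and stands in the dendritic cell list. Plcb2 was above the line on 4 pregnant arrays and 1 pseudopregnant array. It passed the filter through the pregnant group, and the size of its difference is not exact. The count of risen pathway genes was 0 without any single array except pseudopregnant replicate 4, without which it was 3. Vav1, next by p in the list, had overlapping groups and did not pass (0.43 ± 0.12, adjusted p = 0.071). Dpp4, a protease that trims and inactivates Cxcl10 and Cxcl12, was higher on all pregnant arrays and did not pass (0.27 ± 0.073, adjusted p = 0.072). Gnai2, the G protein subunit most used by these receptors in leukocytes, differed by 0.060 ± 0.049 (0.49), and the arrestin Arrb2 by -0.016 ± 0.053 (0.88), with -0.037 to 0.012 without single arrays.

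Among cytokines and factors known to induce chemokines, 8 of 16 on the array passed the filter and 0 changed (limma). By unadjusted p under 0.05, 1 was higher and 3 were lower, beside 14.3% and 9.43% of all tested probe sets. The inducers Tnf, Il1a, Il1b, Il6, Ifng and Il17a were below the line. Nfkbia, an inhibitor that NF-kB itself induces, differed by -0.27 ± 0.096 (adjusted p = 0.14) and the cytokine Lif by -0.24 ± 0.21 (adjusted p = 0.52). Without pregnant replicate 2, its lowest array at 4.59, Lif differed by -0.026.

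**Figure D5:**
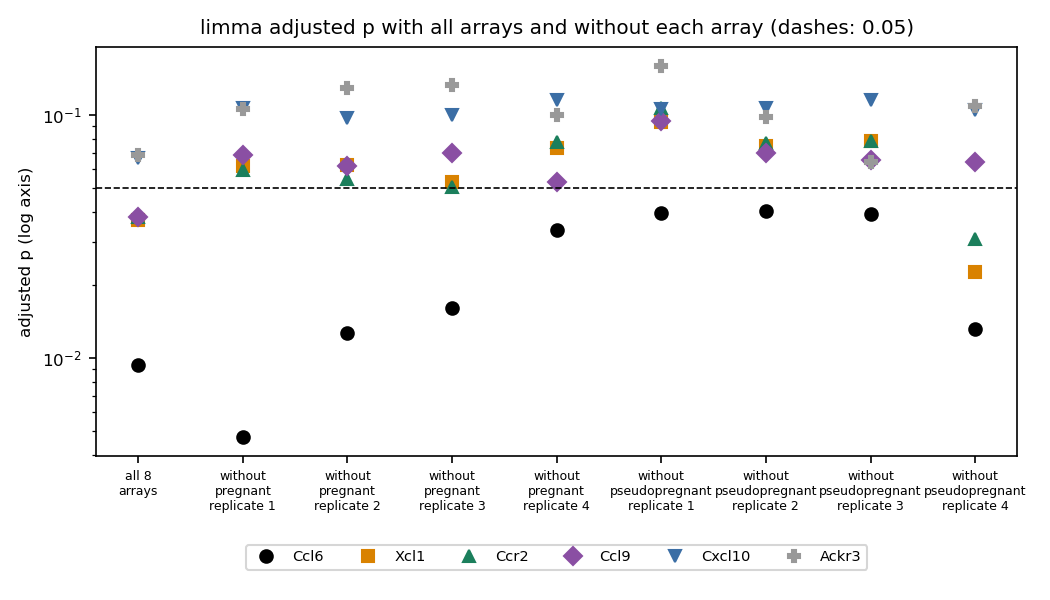
limma adjusted p (vertical log axis) of 6 genes with all 8 arrays and without each array in turn, with the threshold as a dashed line. Ccl6 stays below the threshold throughout, Xcl1 and Ccr2 do so with all arrays and without pseudopregnant replicate 4, Ccl9 only with all arrays, and Cxcl10 and Ackr3 never do.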

How the data were processed

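Total RNA of 8 mouse uteri, 4 pregnant and 4 pseudopregnant by the sample titles, was hybridised to 1-colour arrays. The deposited values are linear probe set intensities made by the authors with RMA, per the submitters' processing notes, which give no version; for the array software and the genome build, the sources used here give no name. Background correction by RMA narrows differences near background. No depth applies, and 4 arrays per group limit the precision. All 8 value columns were used.

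Of 35556 probe sets, the 6617 numbered before the first with a listed gene were taken as array controls and left out. Of the other 28939, 21789 had 1 gene symbol in the platform's gene table, 1621 several and 5529 none, and only the first kind is named. The gene numbers of 55 of 55 genes matched RefSeq with the same symbol. Log2 values of 17491 probe sets passing the filter on intensity were fitted with lmFit and eBayes of limma 3.58.1 (R 4.3.3) on the group alone, two-sided, with Benjamini-Hochberg adjustment over all of them; the code was tested on simulated data. The titles call the samples biological replicates; no batch is given. Same-numbered arrays of the groups deviated with correlations of 0.24, 0.016, -0.10 and 0.044, so they were not treated as pairs. Named are the genes that passed and each other gene of the family. Also named are up to 4 genes of each further list by p, all 10 dendritic cell markers, and genes with an array far from its group. Cd14, Batf3, Cd68, Gzmb, Ncr1, Eomes, Klrd1, Dpp4, Gnai2, Arrb2, Lif and the listed genes below the line were chosen after their values were seen. Promoter windows are from RefSeq, GRCm38.p6. The family, the gene lists, the motifs and the rules were chosen with earlier results of these data known. Alternatives changed the normalization, filter, variance model, array weights, probe set choice, block and arrays. Python 3.11.15 with matplotlib 3.10.9 made the figures.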

Additional observations from a re-analysis of the deposited data

Results flagged for a closer look

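In 6 of 58 groups of 4 arrays, over the 29 genes tested, 1 array lay far from the other 3 by Dixon's criterion (its gap to the nearest over the range of the group), which chance gives in about 1 in 20 groups, here 2.9. Pregnant replicate 2 was the array in 3 of them, at 8.44 for Cxcl14 (7.07 to 7.24 on the other pregnant arrays), 5.17 for Cxcl15 (7.30 to 7.66) and 6.18 for Cxcl16 (6.37 to 6.39). Pregnant replicate 4 was far from its group for Cxcl10 with 5.70 (6.01 to 6.06) and for Ccl25 with 6.16 (5.70 to 5.76). Pseudopregnant replicate 4 was far from its group for Ccl8 with 5.21 (5.45 to 5.47).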

How the results depend on the processing

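Over 18 alternatives, 1 of them chosen after seeing the data (both outlying arrays left out), Ccl6 passed in 18 of 18, Xcl1 in 8 of 18, Ccr2 in 7 of 17 and Ccl9 in 6 of 17. No gene of the family was called lower in any of them. The count of 4 risen genes was 1 to 3 without single arrays, 1 without the filter, 2 with the stricter filter at the 60th percentile (9 of the 29 genes left, without Ccl9 and Ccr2), 2 with the replicate block (Ccl6 and Ackr3, adjusted p = 0.049) and 1 with both outlying arrays left out. Array weights added Ccl7 (adjusted p = 0.048). The median difference, 0.09, was 0.050 to 0.13 without single arrays, -0.0015 without the filter (over all 55 genes) and -0.0058 with the stricter filter. The count of 3 pathway genes was 0 to 3 without single arrays, and 0 without the filter, with the replicate block and without both outlying arrays. All probe sets called, 319 in the main setting, were 40 to 235 without single arrays, 54 without the filter, 710 with trended and robust variances, 174 with the block and 48 without both outlying arrays. The block and the group could be fitted together, but the replicate numbers pair no arrays by the labels, and 2 of the 4 pregnant arrays deviated most like the pseudopregnant array of their own number.

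Differences near 0 changed sign in some fits. Ccl19 turned to 0.016 with cyclic loess, to 0.0012 without both outlying arrays and ranged from -0.084 to 0.027 without single arrays, and Cxcl17 turned to 0.0038 with array weights, to 0.069 without both outlying arrays and ranged from -0.13 to 0.034. Cxcl9 was -0.021 without both outlying arrays and -0.0029 to 0.18 without single arrays. Without single arrays, Ackr4 ranged from -0.017 to 0.054, Ccl2 from -0.034 to 0.065, Cxcl12 from -0.042 to 0.022 and Cxcr3 from -0.0083 to 0.078. The causes were not tested.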
